A study of Cyanidioschyzon merolae strain 10D with 3 samples.

Results

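Near-silent interior nuclear genes are protein-coding genes of *Cyanidioschyzon merolae* that lie away from chromosome ends and repetitive elements and that gave almost no RNA-seq signal. They were chosen by their measured level, a mean FPKM under 5 over the 3 libraries. FPKM is a count of sequenced fragments scaled for locus length and for the depth of the library. Further conditions were a nuclear locus with an identifier ending in C, a length of at least 300 bp, no shared base with any annotated locus, more than 20 kb to position 0 and to the end of the last locus of the chromosome, and more than 1000 bp to any locus ending in X, the class of repetitive elements. The rule gave 107 genes out of 6823 annotated loci. Of 3485 genes that meet its conditions on class, length and position, 3.13% had a mean under 5 FPKM, and this share restates the rule. Another 2 genes under 5 FPKM, CMG018C and CMG019C, were left out by name. The 3376 genes at 5 FPKM or more that meet the same conditions are called other interior genes.

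The series holds 3 libraries, labelled biological replicates 1, 2 and 3, of polyadenylated RNA from liquid cultures of strain 10D. All cultures had one condition, 42°C with 150 rpm shaking and continuous light of 70 µmol, and they were harvested in late log-phase. No second condition or strain was measured, so each level below is that of late log-phase cells in the light. At the 4955 loci without overlap, the fragments behind the FPKM, as read from its confidence limits, sum to 1.30e+07 for library 1, to 2.88e+06 for library 2 and to 2.98e+06 for library 3. On the implied fragments, libraries 2 and 3 differed by less than sampling noise, with an index of 0.273 over 4378 loci. Independent sequencing of one RNA gives 1. Over the same loci the index of library 1 was 21.8 with library 2 and 20.8 with library 3. The index takes implied fragments as counts, and too few of them would lower it. Whether libraries 2 and 3 are independent cannot be told from it. As a choice, their mean was counted as 1 sample beside library 1, though the labels name 3 biological replicates. Every SD over samples therefore has n = 2 and leaves out the spread between libraries 2 and 3.

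*C. merolae* is a unicellular red alga of hot acidic springs with a compact genome in which very few genes have introns. In eukaryotes, genes that are hardly transcribed in one condition are often packed in repressive chromatin, one form of which carries the Polycomb mark H3K27me3. Chromatin was not analysed here for these genes. A low mRNA level can come from little transcription or from quick decay, and RNA-seq does not tell these apart. RNA without a poly(A) tail is also poorly seen with oligo(dT) priming. All 107 genes are listed as protein-coding in the RefSeq table of assembly ASM9120v1, as are all 3376 other interior genes. The symbols in that table are locus tags alone, so no role is given to any gene below.

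The nuclear chromosomes carry 4803 loci ending in C, of which 252 had a mean under 5 FPKM. Taken in order, 10 of these were too short, 110 overlapped another locus, 15 lay near a chromosome end and 8 near a repetitive element, which left 109. Where loci overlap, their reads can be assigned to either, and those 110 genes are not described. Each of the 107 near-silent genes has its stretch of chromosome to itself in the annotation.

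The near-silent genes had a median of 0.809 FPKM in library 1, while libraries 2 and 3 gave 0.95 and 0.818, and the median over the samples was 0.847 ± 0.0526 (SD, n = 2). Other interior genes had medians of 62.1, 65.5 and 65.4 in the same libraries, or 63.8 ± 2.38 (SD, n = 2). The rule fixes this gap, which is a description. Within the set, 8 genes were listed at 0 in all 3 libraries, 6 had a mean above 0 and up to 0.1, 44 a mean up to 1, 23 up to 2, 12 up to 3, 8 up to 4 and 6 up to 5. A total of 58 genes thus had a mean under 1 FPKM. The number of interior genes thins out toward the threshold from above, with 161 genes from 10 to 20 FPKM and 43 from 5 to 10. The lowest 5% of interior genes ended at 12.1 FPKM.

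**Figure D1:**
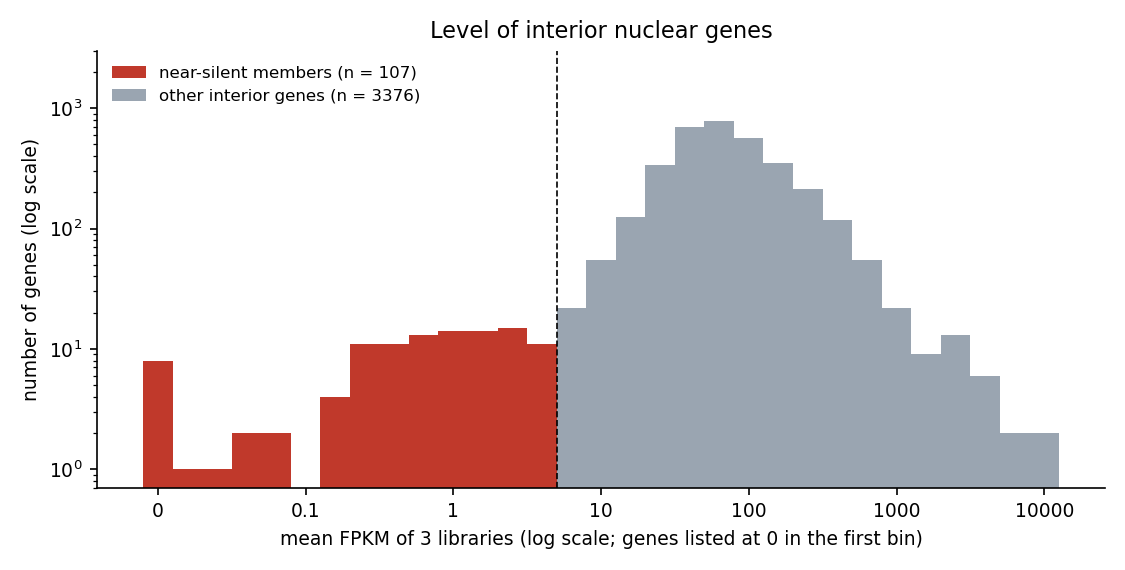
Number of genes (log scale) against the mean FPKM of the 3 libraries (log scale, genes listed at 0 in the first bin) for the 107 near-silent genes and the 3376 other interior genes. The dashed line is the threshold of 5 FPKM, and the near-silent genes form a flat tail below the main body of genes, whose interior median is 62.5.

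Summed over all near-silent genes, library 1 gave 3718 implied fragments, library 2 gave 776 and library 3 gave 806. These are 0.0286% of the fragments of loci without overlap in library 1 (95% Wilson interval 0.0277% to 0.0296%), 0.0270% in library 2 (0.0251% to 0.0289%) and 0.0271% in library 3 (0.0253% to 0.0290%). The 3 libraries gave nearly the same share despite their unequal depth. Their intervals overlap and cover counting error only.

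The fragments behind each value were few. Dividing FPKM by its SD, taken from the confidence limits, and squaring the quotient gave the number of fragments. The result lay no more than 0.05 from a whole number for 69.7%, 91.2% and 87.1% of the near-silent genes with fewer than 50 fragments and a value above 0 in libraries 1, 2 and 3. The median near-silent gene had 17 implied fragments in library 1 and 4 in each of libraries 2 and 3, against 1763, 389 and 404 for the median other interior gene. More than 3 fragments, the limit that a count of 0 allows, were found in every library at 55 of the 107 genes. Over all 3485 interior genes the share was 98.5%, and each of the 3376 other interior genes passed. A further 26 near-silent genes passed in library 1 alone, 1 in library 2 alone and 3 in a pair of libraries, and 22 passed in no library. Numbers within 0.05 of a whole number were taken as whole. For those 22 genes the data give an upper limit rather than a level.

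**Figure D2:**
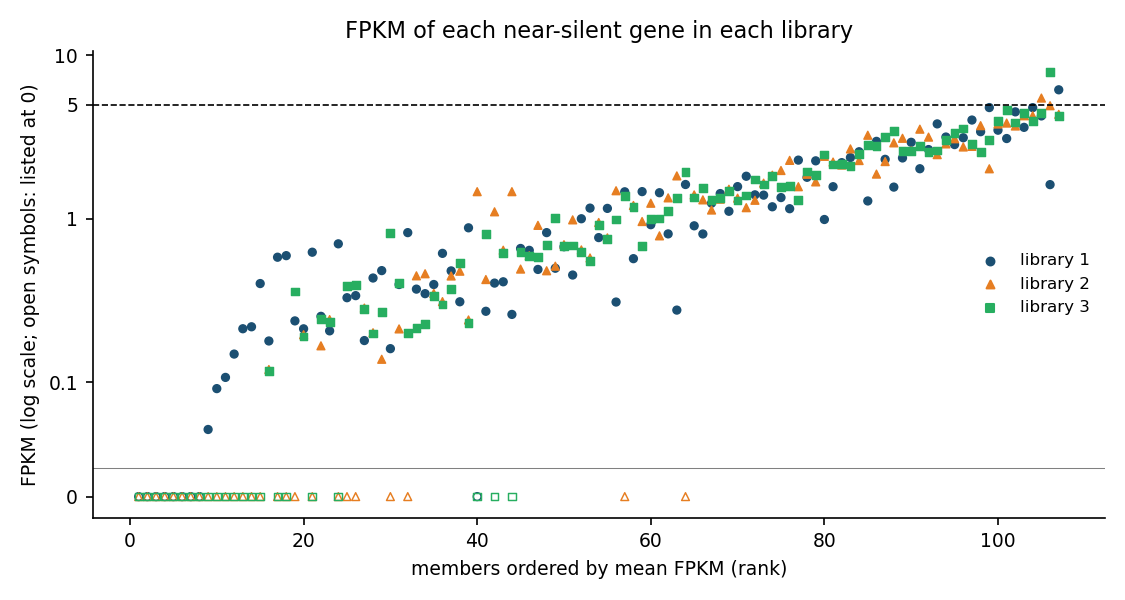
FPKM (log scale) of each of the 107 near-silent genes in libraries 1, 2 and 3, ordered by mean FPKM. Open symbols are values listed at 0, and the dashed line is the threshold of 5, which 1 gene exceeds in each library.

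The depth of a library sets what a low FPKM can mean, and it does so by length. For loci near 1000 bp, 3 fragments equal 0.147 FPKM in library 1, 0.695 in library 2 and 0.675 in library 3. Near 2000 bp the values are 0.0665, 0.309 and 0.300 FPKM. Near 300 bp they are 1.00, 6.32 and 6.11 FPKM, so at the shortest genes 3 fragments in library 2 or 3 already exceed the threshold of 5. Short near-silent genes are thus known as low from library 1 more than from the other libraries. From 1000 to 300 bp the FPKM of 3 fragments rises by more than a division by length gives, and more in libraries 2 and 3.

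The genes listed at 0 were led by CMO124C, a locus of 1944 bp on chromosome 15 from 306718 to 308661 in the Genome Project v3 build, as are all positions here. With 0 in all 3 libraries, its limit is 0.0683 FPKM in library 1, 0.318 in library 2 and 0.308 in library 3. In the same stretch lie CMO119C, from 296590 to 297681, and CMO120C, from 298406 to 299497. Both are 1092 bp long and were listed at 0 in all libraries, with limits of 0.131, 0.618 and 0.599 FPKM in libraries 1, 2 and 3. These 3 have the lowest limits of the 8 genes at 0. Between them and CMO124C lie CMO121C, with 388, 367 and 369 FPKM, and the overlapping pair CMO122C, listed at 0 in all libraries, and CMO123T, with 4.93, 2.85 and 3.57 FPKM. An exact 0 in such a table can be a failed estimate, and loci of equal length can be copies whose reads the authors' counting could divide, so the limits hold only if 0 stands for no fragment. No sequence was used here to compare the pair.

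The other genes at 0 in every library are short. CMN166C (chromosome 14, 433894 to 434202) has 309 bp, CMN170C (chromosome 14, 419158 to 419508) has 351 bp and CMN176C (chromosome 14, 444055 to 444462) has 408 bp. CMN329C (chromosome 14, 819828 to 820175) has 348 bp and CMI189C (chromosome 9, 515022 to 515393) has 372 bp. Their limits run from 0.507 FPKM for CMN176C to 0.911 for CMN166C in library 1, and from 2.76 to 5.46 in library 2. For CMN166C the limits of libraries 2 and 3 lie above 5 FPKM, so library 1 alone places it under the threshold.

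The lowest values above 0 came from a handful of fragments in the deepest library. CME048C (chromosome 5, 132199 to 133200) had a value only in library 1, where 1 fragment gave 0.0515 FPKM. CMH143C (chromosome 8, 351646 to 352251) had 0.0915 FPKM in library 1 from 1 fragment and CMD085C (chromosome 4, 206760 to 207686) had 0.107 from 2, with 0 in the other libraries for both. All 3 lie below the limit of 3 fragments in every library. CMS071C (chromosome 19, 177891 to 179138) had 0.149 FPKM and CMG208C (chromosome 7, 548569 to 549483) had 0.213, each from 4 fragments in library 1 and none in libraries 2 and 3. In all, 11 near-silent genes were above 0 in library 1 alone, 7 in libraries 1 and 3, 2 in libraries 1 and 2, and 1, CMN145C, in library 2 alone. The remaining 78 were above 0 in every library.

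At the upper edge the members just inside the threshold were CMC115C, CML056C and CMM099C. CMC115C (chromosome 3, 269915 to 271711) had 6.16, 4.36 and 4.24 FPKM in libraries 1, 2 and 3, with 262, 40 and 40 fragments. CML056C (chromosome 12, 117322 to 117630) had 1.62, 4.92 and 7.92 FPKM, and these rest on 6, 3 and 5 fragments. CMM099C (chromosome 13, 228834 to 230756) had 4.26, 5.48 and 4.45 FPKM. Each of the 3 was over 5 in 1 library. Just outside were CMR353C (chromosome 18, 852084 to 854888) with 4.92, 4.98 and 5.10 FPKM, CMT594C (chromosome 20, 1506188 to 1507114) with 4.62, 5.18 and 5.48, and CMB107C (chromosome 2, 302082 to 302801) with 9.33, 3.58 and 2.45. The values on both sides of the line overlap between libraries, and the threshold falls within that overlap.

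The best-measured near-silent genes were 8 with more than 20 fragments in each library. This choice and the rule fix that they were present in every library and low in the mean. CMK015C (chromosome 11, 34820 to 37651), a locus of 2832 bp, had 2.21, 2.13 and 2.18 FPKM in libraries 1, 2 and 3, or 2.18 ± 0.0371 (SD, n = 2), from 163, 33 and 35 fragments. CMO090C (chromosome 15, 225612 to 227747) had 2.94, 2.61 and 2.61 FPKM, or 2.77 ± 0.236 (SD, n = 2). CMT333C (chromosome 20, 840682 to 842637) had 3.14, 2.75 and 3.57 FPKM, or 3.15 ± 0.0183 (SD, n = 2). This SD leaves out the spread from 2.75 to 3.57 between libraries 2 and 3 and is no measure of precision. CMO333C (chromosome 15, 823170 to 824936) had 4.52, 3.70 and 3.89 FPKM, and CMR398C (chromosome 18, 972167 to 973864) had 4.02, 2.78 and 2.89. With CMC115C, CMM099C and CMT269C they complete the 8. CMC178C (chromosome 3, 440175 to 441599), with 20 fragments in library 2, just missed this number and had 3.17, 2.88 and 3.05 FPKM.

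After the edge genes, CMK170C and CMG116C had the highest means over the 3 libraries, 4.34 and 4.12 FPKM. CMK170C (chromosome 11, 472628 to 473701) had 4.79, 4.27 and 3.97 FPKM, or 4.46 ± 0.474 (SD, n = 2). CMG116C (chromosome 7, 296957 to 297871) had 3.63, 4.27 and 4.45 FPKM, or 4.0 ± 0.518 (SD, n = 2). Their ranges overlap, and neighbours in this order do not differ beyond their spread.

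Long near-silent genes give the firmest low values, because a long locus collects more fragments at a given level. CMN049C (chromosome 14, 113493 to 116741) is the longest, with 3249 bp, and had 0.481, 0.447 and 0.374 FPKM from 40, 8 and 7 fragments. CMT127C (chromosome 20, 341075 to 343489), of 2415 bp, had 0.311, 0.479 and 0.539 FPKM from 18, 6 and 7 fragments. CMT166C (chromosome 20, 425764 to 428139), of 2376 bp, had 0.659, 0.493 and 0.629 FPKM from 36, 6 and 8 fragments. All 3 were above 3 fragments in every library and under 1 FPKM in each. CMM242C (chromosome 13, 601692 to 603971), of 2280 bp, was lower still at 0.253, 0.167 and 0.244 FPKM, with 14, 2 and 3 fragments. The other near-silent genes over 2000 bp were higher. CMK015C, of 2832 bp, had 2.21, 2.13 and 2.18 FPKM, and CMO090C, of 2136 bp, had 2.94, 2.61 and 2.61.

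The near-silent genes were shorter than other interior genes in their medians, with 1041 bp against 1233 bp, and in their upper quartiles, with 1529 bp against 1867 bp. Only the minimum of 300 bp was used in the rule. Of the near-silent genes, 16 (15%) were under 450 bp, against 5.36% of other interior genes, and 6 (5.61%) were over 2000 bp, against 21.4%. Between these ends the shares were closer, with 34 of 1093 interior genes from 450 to 1000 bp and 51 of 1466 from 1000 to 2000 bp falling into the set, or 3.11% and 3.48%. No test over genes was run. Outside a stretch of chromosome 14 described below, whose bounds were set with values known, 9 of 100 near-silent genes were under 450 bp. The excess at the short end coincides with the length at which few fragments decide the FPKM, and the part of depth in it was not tested. None of the 16 short genes passed 3 fragments in every library, and their median FPKM was 0.217.

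**Figure D3:**
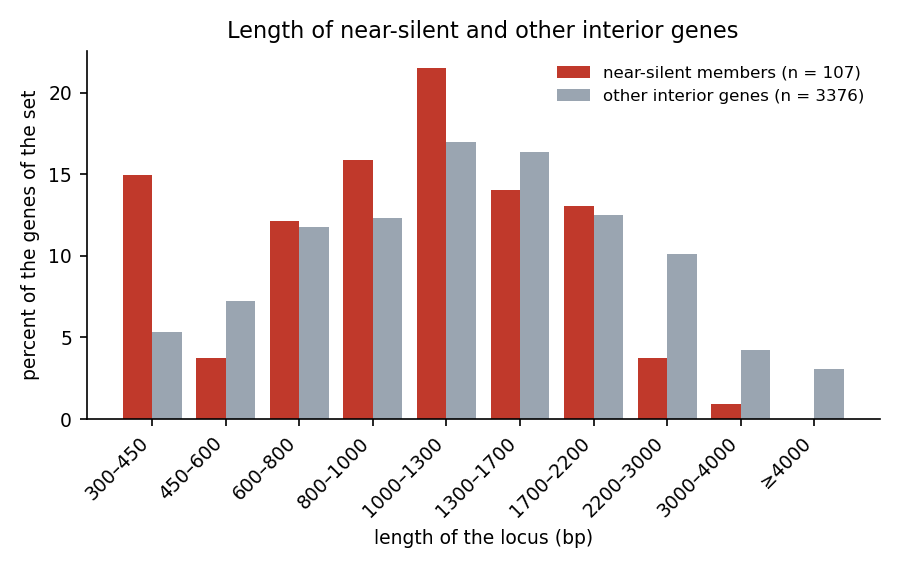
Percent of the 107 near-silent genes and of the 3376 other interior genes in each class of locus length (bp). From 300 to 450 bp lie 15% of the near-silent genes and 5.36% of the other interior genes, and over 2000 bp 5.61% and 21.4%.

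The length of every near-silent locus is a multiple of 3, as is that of 3362 other interior genes (99.6%), so these loci are reading frames without annotated untranslated regions. A group of 6 near-silent genes has from 300 to under 330 bp, or 5.61%, against 25 other interior genes, or 0.741%. They are CMN166C, CMN169C, CMJ203C, CML056C, CMQ104C and CMH215C. CMJ203C (chromosome 10, 551131 to 551439) had 1.62, 0 and 1.93 FPKM from 5, 0 and 1 fragments. CMQ104C (chromosome 17, 248187 to 248498) had 0.704 FPKM and CMH215C (chromosome 8, 554379 to 554693) had 0.583 in library 1, each from 2 fragments, and both were at 0 in libraries 2 and 3. CML056C alone among the 6 gave fragments in every library. Across the set, 23 genes share their exact length with another near-silent gene, among them 4 of 309 bp and 3 of 1092 bp. Sharing a length is common in this genome, with 3150 of the 3485 interior genes, a larger set in which a match is easier to find.

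The near-silent genes lie on all 20 nuclear chromosomes, but unevenly. Chromosome 14 carries 17 of them among 182 interior genes that meet the conditions on class, length and position (9.34%). Chromosome 5 follows with 8 of 117 (6.84%), and chromosome 7 with 6 of 126 (4.76%). The lowest shares were on chromosomes 6, with 1 of 98 (1.02%), and 10, with 2 of 191 (1.05%). Without one stretch, chromosome 14 has 10 of 167 (5.99%). The bounds of this stretch were set at near-silent genes with their values known, so a fall was built in.

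This stretch of chromosome 14 runs from 415498 to 444462, or 28965 bp, and holds 16 protein-coding loci, of which 7 are near-silent. Its first and last loci are near-silent genes, so the bounds raise this share. Over all interior genes the share under 5 FPKM was 3.13%. They are CMN165C, CMN169C, CMN170C, CMN145C, CMN166C, CMN173C and CMN176C, and all are short, from 309 to 408 bp. CMN165C (415498 to 415905) had 0.161, 0 and 0.818 FPKM in libraries 1, 2 and 3, CMN169C (418237 to 418545) had 0.596, 0 and 0, and CMN145C (421273 to 421626) had 0, 1.47 and 0. CMN173C (439040 to 439393) had 0.260, 1.47 and 0 FPKM, and the other 3 were listed at 0. All 7 together had 4, 2 and 1 implied fragments in libraries 1, 2 and 3. None of them reached 3 fragments in any library.

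The remaining 9 protein-coding loci of the stretch were not low as a group, with a median of 68.4 FPKM and a range of mean FPKM from 8.43 to 959. CMN345C (436875 to 437282) had 854, 1022 and 1001 FPKM. It is 408 bp long, as are CMN165C at 0.326 FPKM in the mean and CMN176C at 0, so loci of one length differed this widely. CMN148C (430688 to 431473) had 381, 442 and 434 FPKM. CMN147C (425489 to 425950) was the lowest of the 9, with 5.42, 10.1 and 9.75 FPKM. CMN166C, with no fragment, lies between CMN167C at 99.3 FPKM and CMN345C at 959 in the mean. CMN165C, CMN169C, CMN170C and CMN145C follow each other at the start of the stretch, and the other 3 near-silent loci each lie between loci at 5 FPKM or more.

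**Figure D4:**
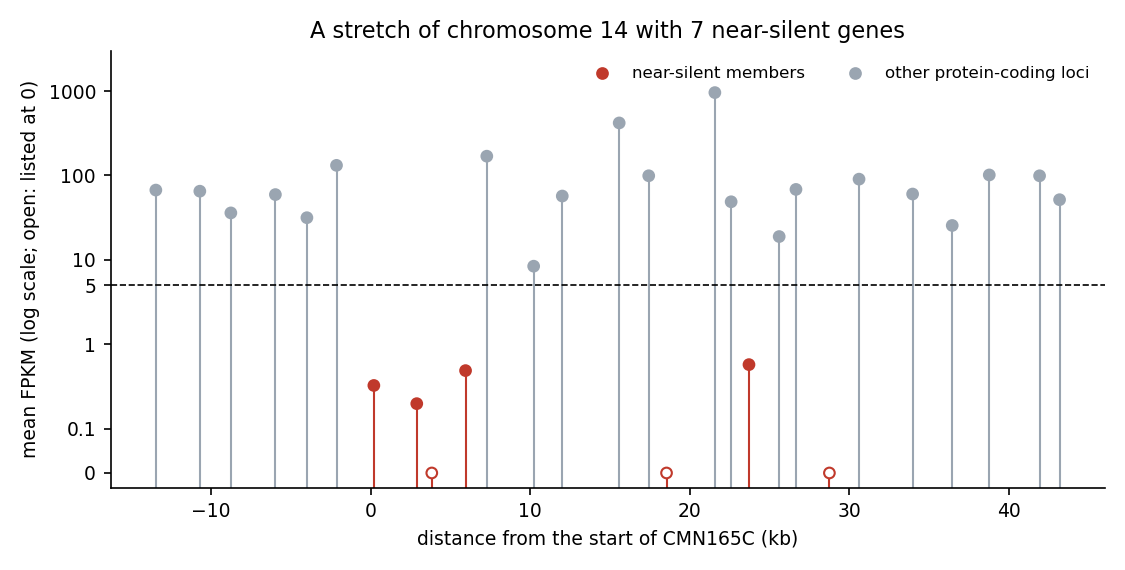
Mean FPKM of the 3 libraries (log scale, open symbols listed at 0) of protein-coding loci on chromosome 14 against their distance from the start of CMN165C (kb), with 6 loci on either side of the stretch. The 7 near-silent genes lie under 1 FPKM, and every other locus lies above the dashed line at 5 FPKM.

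Over the whole set, the stretch of chromosome 14 included, near-silent genes mostly stood apart from each other. Protein-coding loci under 5 FPKM that failed another condition of the rule are not counted here. CMT128C, with a mean of 0.399 FPKM and 63 bp from CMT127C, is such a locus. The median distance to the nearest other near-silent gene was 48.9 kb over the 105 genes that share a chromosome with one. Next to another near-silent gene, with no protein-coding locus between, were 18 of the 107 (16.8%), against 152 of the 3376 other interior genes (4.50%) that had a near-silent gene beside them. These 18 genes form 8 runs, 1 of 4 genes, CMN165C to CMN145C in the stretch of chromosome 14, and 7 pairs. Without that stretch, 14 genes remained next to another.

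The pairs did not share one level. CMO119C and CMO120C were both at 0. CMQ244C (chromosome 17, 622159 to 623793) had 0.412, 0.643 and 0.621 FPKM beside CMQ245C (624307 to 625863) with 0.207, 0.242 and 0.234. CMR327C (chromosome 18, 793223 to 795088) had 1.25, 1.13 and 1.31 FPKM beside CMR328C (796204 to 797130) with 1.11, 1.52 and 1.49. The last pair overlaps in its values in the 3 libraries, while CMQ244C was above CMQ245C in each.

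In the other pairs the difference in mean FPKM was larger. CME136C (chromosome 5, 373041 to 374087) had 4.80, 2.03 and 3.05 FPKM beside CME135C (369513 to 371234) with 0.397, 0.350 and 0.338. CMM115C (chromosome 13, 267373 to 268887) had 1.80, 1.87 and 1.95 FPKM beside CMM116C (271920 to 273026) with 0.435, 0.201 and 0.199. The ranges of these partners do not overlap. CMN194C (chromosome 14, 482863 to 484287) had 2.57, 2.27 and 2.48 FPKM beside CMN193C (477892 to 479583) with 0.907, 1.40 and 1.35. CMT265C (chromosome 20, 656091 to 657107) had 2.98, 1.88 and 2.80 FPKM beside CMT266C (662683 to 664089) with 0.453, 0.986 and 0.688. Here too 1 partner was the higher in every library.

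The protein-coding genes that flank near-silent genes were themselves well expressed. The FPKM of the nearest protein-coding locus on either side had a median of 55.7 for near-silent genes and 59.5 for other interior genes, with quartiles of 27 and 110 for near-silent genes and 35.2 and 109 for other interior genes. These include flanking loci that are near-silent genes themselves and that the rule chose as low. With such loci left out on both sides, the median was 62.2 for near-silent genes and 61.0 for other interior genes, and the order of the medians turned. The quartiles were then 33.5 and 123 for near-silent genes and 36.5 and 111 for other interior genes. With all flanking loci the median over the samples was 54.7 ± 0.713 (SD, n = 2) around near-silent genes and 59.2 ± 2.15 (SD, n = 2) around other interior genes. A flanking gene of 100 FPKM or more stood beside 51 near-silent genes (47.7%), against 47.4% of other interior genes. Both flanking genes were at 5 FPKM or more for 82 near-silent genes (76.6%), against 91.4% of other interior genes. Among genes not next to a near-silent gene these were 82 of 89 near-silent genes (92.1%), against 95.7% of 3224 other interior genes. No test over genes was run.

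Some near-silent genes sit beside highly expressed loci. CMI048C (chromosome 9, 138945 to 140588) had 2.37, 2.68 and 2.10 FPKM, while CMI049C (143824 to 145044) had a mean of 4209 FPKM. CMN329C, at 0, lies between CMN328C at 287 FPKM and CMN330C at 1193. CMR322C (chromosome 18, 778165 to 779073) had 1.19, 1.85 and 1.82 FPKM, with CMR320C at 983 as its nearest protein-coding locus on the left. Annotation of another class lies between CMR320C and CMR322C. These genes were picked for the level of their flanking genes, and the rule keeps their own mean under 5 FPKM, so each gap is a description. A flanking gene of 100 FPKM or more was as common beside near-silent genes (47.7%) as beside other interior genes (47.4%).

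The next cases also have a highly expressed flanking gene on one side. Annotation of another class lies between CME173C and CME175C and between CMO157C and CMO159C. CME173C (chromosome 5, 460413 to 461207) had 1.00, 0.646 and 0.626 FPKM beside CME175C at 990. CMG208C, at 0.0709 FPKM in the mean, lies next to CMG206C at 815, though 4604 bp separate it from the nearest locus on that side. CMT320C (chromosome 20, 811400 to 811936) had 0.499, 0.513 and 1.01 FPKM beside CMT321C at 786. Each of these neighbours was above 700 FPKM. CMO157C (chromosome 15, 404043 to 404618) had 0.768, 0.95 and 0.917 FPKM beside CMO159C at 718. CMS349C (chromosome 19, 894805 to 895524) had 0.491, 0.913 and 0.585 FPKM, with an annotated locus only 72 bp away and CMS351C at 659 FPKM as its next protein-coding locus. CMR119C (chromosome 18, 308962 to 309960) had 2.29, 1.57 and 1.30 FPKM between CMR118C at 394 and CMR121C at 396.

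Near-silent genes had more unannotated sequence around them. The gap to the nearest annotated locus of any class on either side had a median of 1416 bp and quartiles of 650 and 2199 bp, against a median of 1007 bp and quartiles of 449 and 1920 bp for other interior genes. Both gaps exceeded 1000 bp at 41 near-silent genes (38.3%), against 24.7% of other interior genes. The range was wide, from 5 bp between CMN173C and the preceding locus to 5575 bp between CMT265C and CMT266C. The distance to a chromosome end had a median of 248 kb, against 224 kb for other interior genes, and the distance to a repetitive element a median of 24.4 kb, against 19.9 kb.

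Repetitive elements in chromosome interiors have levels of the same order. The 214 elements of at least 300 bp without overlap had a median FPKM of 0.519 ± 0.0735 (SD, n = 2), beside 0.847 ± 0.0526 (SD, n = 2) for the near-silent genes. Their means ran the other way, with 1.29 ± 0.0249 (SD, n = 2) for near-silent genes, which the rule caps, and 5.88 ± 0.0664 (SD, n = 2) for the elements. A share of 80.8% of the elements was under 5 FPKM, and 58.9% had more than 3 fragments in every library, against 51.4% of the near-silent genes. The values of elements are uncertain, since reads can be divided between copies.

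The order of the near-silent genes was similar in the 3 libraries. Over the 107 genes, the FPKM of library 1 had a Spearman's rho of 0.809 with library 2 and of 0.887 with library 3, and rho was 0.886 for libraries 2 and 3. These are descriptions across genes that share their library, and genes are not replicates. Summed over the near-silent genes, library 1 had 4.79 times the fragments of library 2 and 4.61 times those of library 3. Over other interior genes the ratios were 4.45 and 4.30. The 20 near-silent genes under 600 bp gave 4.21 and 3.28, and the 87 of 600 bp or more gave 4.80 and 4.64. Few fragments lie behind the 20 genes, and the counting error of these ratios was not worked out. Their order by length is therefore not established. The 426 other interior genes under 600 bp gave 3.75 and 3.65, and the 2950 of 600 bp or more gave 4.51 and 4.35.

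**Figure D5:**
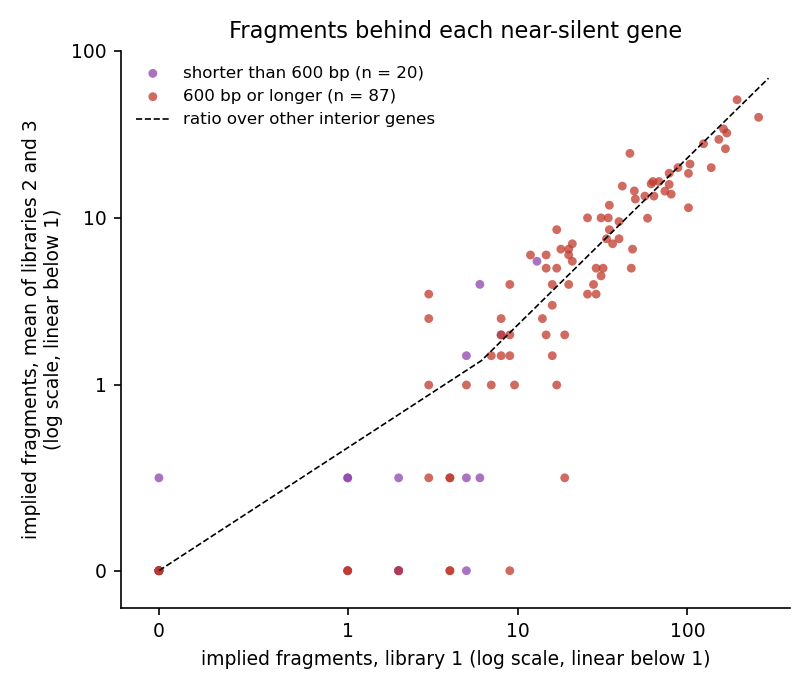
Implied fragments in library 1 (horizontal) and the mean of libraries 2 and 3 (vertical) of the 107 near-silent genes, by length class, on log axes that are linear below 1. The dashed line has the ratio of other interior genes, and points scatter about it most where fragments are fewest.

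Library 1 and the mean of libraries 2 and 3 could be compared at 87 near-silent genes with a value above 0 on both sides. Library 1 was more than 1.5 times higher at 17 of these, where 2.11% of all 3465 such interior genes were called, and more than 1.5 times lower at 22, where 6.75% were. Of the 9 compared genes under 600 bp, 5 were lower and 2 higher. Of the 78 of 600 bp or more, 17 were lower and 15 higher. Depth and locus length move with these calls, and their parts were not tested. Among the 8 near-silent genes with more than 20 fragments in each library, 0 were higher and 1 was lower by that much. Of all 3368 interior genes with as many fragments, 1.54% were higher and 6.24% were lower, and 8 genes are too few to compare with these shares. No tool was run to test the difference, as there are only 2 samples.

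The 1 well-measured exception was CMT269C (chromosome 20, 667364 to 669247), with 0.991 FPKM in library 1, against 2.41 and 2.48 in libraries 2 and 3. Its fragments numbered 46, 24 and 25, and its ratio of library 1 to libraries 2 and 3 was 0.406. It lies near CMT265C and CMT266C. In the other direction CMS162C (chromosome 19, 430086 to 431138) had 0.824 FPKM in library 1, against 0 and 0.20, from 19, 0 and 1 fragments. CMC093C (chromosome 3, 219977 to 221032) had 0.882 FPKM in library 1, against 0.241 and 0.232, from 17, 1 and 1 fragments. CMG011C (chromosome 7, 35348 to 37159) had 1.16 FPKM in library 1, against 0.577 and 0.555, from 47, 5 and 5 fragments. Library 1 has the most implied fragments, so a higher FPKM there comes with more fragments. The low values of these 3 genes rest on at most 5.

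Further genes were lower in library 1. CMQ466C (chromosome 17, 1203848 to 1204456) had 0.277 FPKM in library 1, against 1.83 and 1.34, from 3, 4 and 3 fragments. CMG098C (chromosome 7, 251713 to 252399) had 1.29 FPKM in library 1, against 3.25 and 2.82, from 17, 9 and 8 fragments. These values rest on at most 17 fragments in any library. CMT068C (chromosome 20, 174191 to 175972), a longer locus of 1782 bp, had 0.272 FPKM in library 1, against 0.425 and 0.810.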

How the data were processed

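The authors sequenced paired-end TruSeq libraries of RNA from late log-phase cultures on a HiSeq 2000, ran FastQC and then the Tuxedo tools within Galaxy, and deposited Cufflinks FPKM with confidence limits per locus and library. Loci and positions are those of Genome Project v3 for *C. merolae*. Versions and the treatment of reads with several positions are not given in the sources used here. Nothing in the labels says whether replicates were separate cultures beyond the words biological replicate.

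Coordinates come from the locus column and are written from 1. Fragments were derived from the upper limit, taken as 2 SD above the FPKM. No read count was used here to check the depth these limits imply, and for library 1 in particular it remains uncertain. Fragment numbers, the index, depth ratios and limits thus hold only as far as this reading of the limits does. Limits for a value of 0 are 3 times the median FPKM per fragment of loci within 10% of the length. Intervals and limits cover counting error only. No comparison between groups was tested, since all libraries share one condition. The fragment formula and index were run on simulated counts whose limits were made with the same formula. This checks the code and cannot check the reading of the deposited limits.

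The genes and alternatives were chosen with earlier results of these data known. Named genes were the extremes of level, length, flanking level and library ratio, the genes at 0, those next to the threshold and those in runs. CMN345C, CMN148C, CMN147C, CMG011C, CMG098C, CMQ466C, CMS162C, CMC093C, CMT068C, CMM242C and the genes under 330 bp, with CMT166C, CMC178C, CMO121C, CMO122C and CMO123T, were named after their values were seen. Product names, proteins and promoters were not used here. Scripts ran in Python 3.11.15 with scipy 1.17.1, pandas 2.3.3 and numpy 2.4.6, and figures were drawn with matplotlib 3.10.9.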

Additional observations from a re-analysis of the deposited data

How the results depend on the processing

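The number of near-silent genes stayed within 1.5 times of 107 under each alternative, from 81 under 2 FPKM to 150 under 10 FPKM. Their median of 0.878 FPKM, over the mean of the 3 libraries, was 0.503 with a threshold of 2, 1.65 with a threshold of 10, 0.761 with the highest library under 5, 1.06 with a minimum of 500 bp and 0.968 without the stretch of chromosome 14, an alternative chosen after seeing the data. Leaving out a library gave 0.792 to 0.861. The number with more than 3 fragments in every library, 55, was 30 with a threshold of 2, 98 with a threshold of 10, 25 with more than 10 fragments and 85 when 1 library sufficed. The 39 genes that differed by more than 1.5 times between library 1 and the others were 17 at 2 times and 1 among those with more than 20 fragments in each library. The median of flanking genes, 55.7 FPKM, was 59.1 without overlapping loci, 62.2 without flanking near-silent genes, also chosen after seeing the data, and ranged from 55.7 to 56.8 without one library. The counts of genes next to another and the median length stayed within 1.5 times. Alternatives that need product names, proteins or promoters were not run. At under 450 bp, depth limits what libraries 2 and 3 can show.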
